A study of Mus musculus with 12 samples.

Results

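The matrix metalloproteases, the ADAM and ADAMTS proteases, the ADAMTS-like proteins and the TIMP inhibitors were taken as all entries of the count table whose symbol was Mmp, Adam, Adamts, Adamtsl or Timp followed by a number, with at most 1 letter after it for Mmp and Adam. This rule used names alone and no measured value. It found 85 of the 56691 entries, made up of 23 Mmp, 34 Adam, 19 Adamts, 5 Adamtsl and 4 Timp genes. Of these, 37 had enough counts to be tested, namely 8 Mmp, 10 Adam, 12 Adamts, 3 Adamtsl and 4 Timp genes.

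The cells were MC3T3-E1, a wild-type mouse calvarial pre-osteoblast line that lays down and mineralizes a collagen matrix in culture. Over 28 days of differentiation all 4 groups, controls included, were kept in osteogenic medium, which held 50 µg/ml ascorbic acid, 10 mM β-glycerophosphate (BGP, which releases phosphate) and the glucocorticoid dexamethasone at 0.1 µM. From day 27, for 24 h, the first group received 100 µM 25-hydroxyvitamin D (25(OH)D), the circulating vitamin D metabolite, together with 100 µM ZK191784, a synthetic vitamin D analogue that binds the vitamin D receptor. The second received 100 µM 25(OH)D with a further 4 mM BGP, the third 100 µM 25(OH)D alone, and the control group none of these. The doses are as labelled, and the unit of the 25(OH)D and ZK191784 doses could not be checked. Each group had 3 libraries of a 3' mRNA-seq kit, which reads the end of each transcript. No separate cultures are named for the 3 libraries of a group, and p-values therefore reflect the spread between libraries alone, which may be technical.

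MMPs are zinc-dependent endopeptidases, secreted or held in the membrane, that are made as inactive precursors and together cut most proteins of the extracellular matrix. ADAMs are membrane proteases that shed the outer part of growth factors, receptors and adhesion proteins, while ADAMTS enzymes are secreted and cut proteoglycans, procollagens and other matrix proteins. ADAMTS-like proteins lack the protease domain, and TIMPs block the active sites of MMPs and of some ADAM and ADAMTS enzymes. In bone these genes serve the turnover of osteoid, the unmineralized matrix, and the invasion of cartilage during growth.

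Library totals were between 3318723 and 5170980 counts, and the 85 genes held 0.557 to 0.694% of them. All 8 osteoblast markers examined were tested, and their summed level was 23806 to 38194 CPM (counts scaled to a common library size) with ZK191784, 7102 to 12162 with BGP, 6966 to 13308 with 25(OH)D alone and 45330 to 75327 in control. Col1a1, Col1a2 and Ibsp make up most of this sum, and not every marker followed it. Alpl had 186, 202 and 174 counts with 25(OH)D alone, against 124, 107 and 98 in control, and the counts of Sp7 overlapped between these groups. In such bulk samples fewer cells of a type and less RNA per cell cannot be told apart. Of the marker lists of other cell types, those of macrophages and osteoclasts summed to between 272.7 and 456.1 CPM in all libraries, with Ptprc (125 to 327 CPM) and Ctsk as the members with most counts over all libraries together, while Csf1r lay between 0.642 and 3.09 CPM. The chondrocyte list summed to between 63.5 and 242.9 CPM, that of muscle to between 28.1 and 90.7 CPM, that of endothelium to between 17.0 and 62.1 CPM and that of adipocytes to between 1.31 and 8.57 CPM. Adipocyte sums were 1.31 to 5.06 CPM with 25(OH)D alone and 5.86 to 8.57 CPM in control, and 1 of the 5 listed genes was tested. Fabp4 had most of the adipocyte counts in control, with 22, 20 and 34, against 8, 1 and 1 with 25(OH)D alone. Adipoq did not follow it, with 7, 1 and 0 counts with 25(OH)D alone and 1, 0 and 0 in control. The osteocyte list summed to 50.9 to 65.5 CPM with 25(OH)D alone and 110 to 149 CPM in control. It summed to 86.2 to 116 CPM with ZK191784 and 74.1 to 76.1 CPM with BGP. Pdpn had most of the osteocyte counts, and those of Dmp1 overlapped between 25(OH)D alone and control. Myog of muscle and Cdh5 of endothelium had 0 counts, but Acta1 had 113 to 371 and Pecam1 54 to 207 counts per library. The part of other cell types in the results was not tested. The libraries also differed within groups along 1 component with 58.9% of the within-group variance, which ran with the log2 ratio of ribosomal protein gene counts to counts of pseudogenes and Gm-numbered genes (−1.88 to −0.53), called the library ratio here.

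Promoter sequences of 26 of the 37 tested genes were found in a RefSeq table of GRCm38.p6, from 250 bases before to 50 after the start; the counts themselves were made on mm39. Among the 8 genes called with 25(OH)D against control (adjusted p under 0.05, described below), 5 had a promoter there, and Adamtsl5 was the 1 of them with a match to any of 4 short motifs. The motifs, searched on both strands, were AGGTCA and GGTTCA, half-sites of the vitamin D receptor with its partner, TGTGGT for RUNX factors and TGANTCA for AP-1. The Adamtsl5 window, chr10:80348399-80348698 on the minus strand, is shown because it held AGGTCA at bases 49 to 54 and 114 to 119 from its 5′ end, in capitals. AGGTCA was held by 16.3% of all 32851 promoters given there. The Mmp13 window, chr9:7272264-7272563 on the plus strand, is shown because it held both the RUNX motif, as its reverse complement at bases 133 to 138, and the AP-1 motif, in capitals at bases 216 to 222, which 16.8% and 7.81% of all promoters held. Adam19, not printed, also had matches to both of these and to AGGTCA. These were counted by gene over its promoters and are not shown to lie in the same one. A match describes letters and not a bound site.
Adamtsl5: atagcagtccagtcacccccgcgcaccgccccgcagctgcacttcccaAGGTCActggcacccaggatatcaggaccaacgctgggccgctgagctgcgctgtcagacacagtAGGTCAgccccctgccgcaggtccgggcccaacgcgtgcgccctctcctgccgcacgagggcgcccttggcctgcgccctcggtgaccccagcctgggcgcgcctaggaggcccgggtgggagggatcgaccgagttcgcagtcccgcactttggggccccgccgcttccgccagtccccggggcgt
Mmp13: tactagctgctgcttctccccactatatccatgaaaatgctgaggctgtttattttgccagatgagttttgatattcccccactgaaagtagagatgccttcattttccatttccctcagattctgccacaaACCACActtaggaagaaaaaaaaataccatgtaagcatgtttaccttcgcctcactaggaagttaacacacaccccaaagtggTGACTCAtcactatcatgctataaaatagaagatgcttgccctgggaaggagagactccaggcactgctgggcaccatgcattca

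The comparison of 25(OH)D with control asked how the vitamin D metabolite changed these genes in mineralizing cells. With 25(OH)D, 4 of the 37 tested genes rose, namely Mmp11, Mmp8, Adam11 and Adamtsl5, and 4 fell, namely Mmp16, Adam12, Adamts18 and Timp4. The 8 called genes were 21.6% of those tested, against 8.68% of all 14394 genes tested, of which 4.76% rose and 3.93% fell. Libraries of the 2 groups did not overlap for 14 of the 37, nor for 21.9% of all genes tested. The median log2 fold change of the 37 was −0.02, against −0.05 over all genes tested, and the median absolute log2 fold change was 0.60, against 0.36. This gap is not particular to 25(OH)D against control. The absolute median was 0.40, against 0.22, for 25(OH)D plus ZK191784 against control. It was 0.30, against 0.17, for 25(OH)D plus BGP against 25(OH)D alone, where no gene was called. Calls are adjusted p-values (Benjamini-Hochberg over all genes) under 0.05 in edgeR's quasi-likelihood test, and levels are CPM scaled by TMM, an adjustment for library composition.

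**Figure D1:**
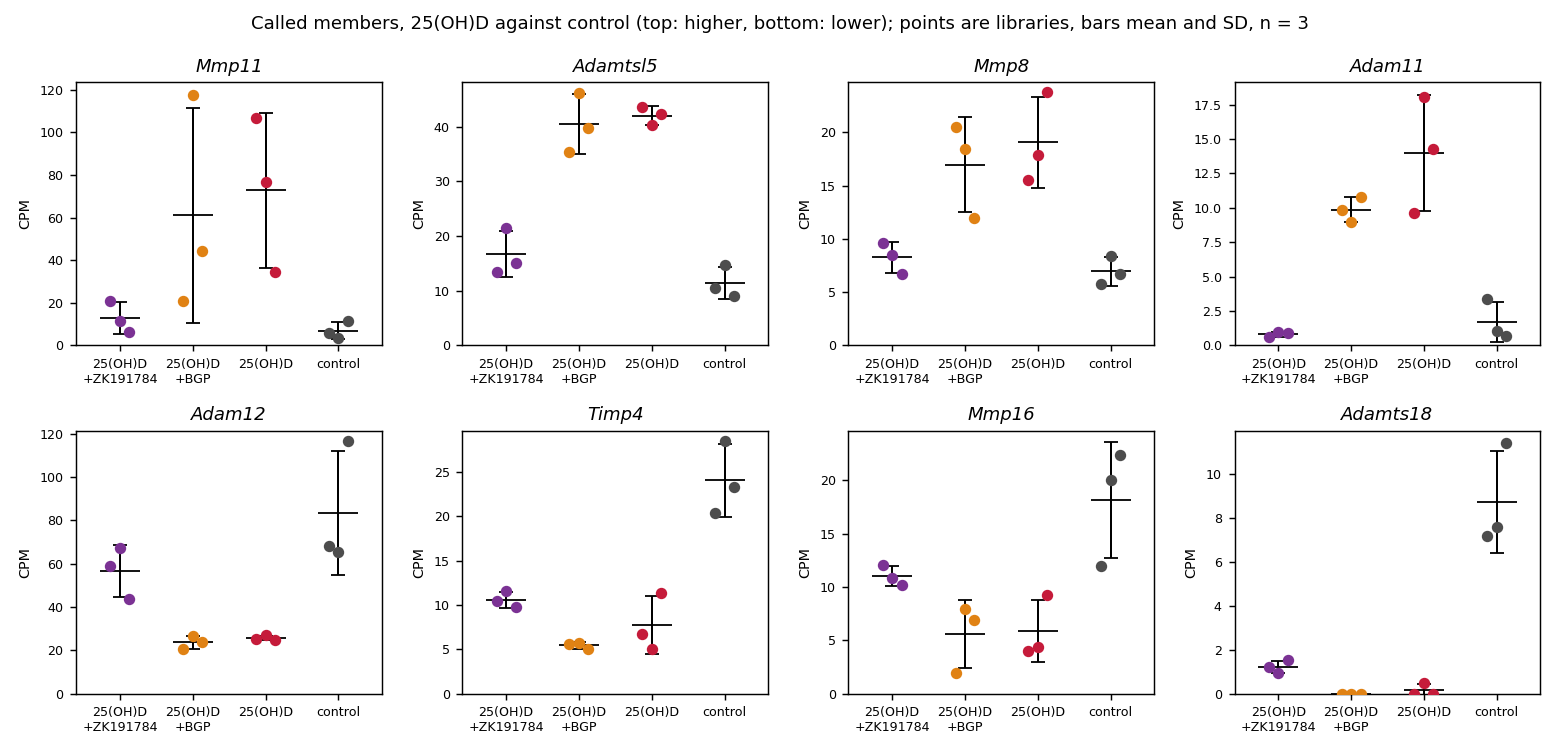
CPM of the 8 genes called between 25(OH)D and control, 1 point per library, with mean and SD (n = 3) as bars, for the 4 groups from left to right. In the top row the 25(OH)D and 25(OH)D plus BGP libraries lie above all control libraries, and in the bottom row they lie below them.

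Among the collagenases, Mmp8, first known as the neutrophil collagenase, rose. It had 15.5, 17.8 and 23.8 CPM with 25(OH)D, against 5.76, 8.43 and 6.66 CPM in control. All 3 treated libraries lay above all controls, with a log2 fold change of 1.45 ± 0.29 (SE; edgeR adjusted p = 0.00638). Mmp13, collagenase 3, the main collagenase of mouse osteoblasts and hypertrophic cartilage, had 883, 663 and 412 CPM with 25(OH)D, against 461, 595 and 1313 CPM in control. These ranges overlapped widely, and the difference of −0.27 ± 0.45 on the log2 scale did not pass (adjusted p = 0.792). Mmp1a had 0 counts and Mmp1b 1 count in the 12 libraries.

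Mmp11, stromelysin 3, a protease that furin activates inside the cell, showed the largest fold change of the genes that rose. It had 107, 76.9 and 34.6 CPM with 25(OH)D, against 5.76, 3.58 and 11.4 CPM in control. The libraries of both groups varied widely among themselves, yet the lowest 25(OH)D library stood above the highest control (10.5-fold, log2 3.40 ± 0.70, edgeR adjusted p = 0.00821). The call was lost when no filter on low counts was applied (adjusted p = 0.0889). Mmp11 overlaps Chchd10 on the opposite strand, and Chchd10 differed by −0.86 ± 0.66 (adjusted p = 0.542). The stromelysin Mmp3 had 2 counts in all libraries together.

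Of the membrane-type MMPs, which act at the cell surface, Mmp16 fell. It had 4.01, 4.34 and 9.24 CPM with 25(OH)D, against 12.0, 20.0 and 22.4 CPM in control. The groups did not overlap, but the highest treated library was close to the lowest control (log2 −1.63 ± 0.45, edgeR adjusted p = 0.0434). Without 25(OH)D library 1 or 2 or control library 2 or 3 the adjusted p was 0.162, 0.197, 0.131 and 0.0968, and in a fit of these 6 libraries alone it was 0.0703. Mmp14, which activates the Mmp2 product together with TIMP2 and is needed for collagen turnover in the mouse skeleton, had 910, 668 and 353 CPM with 25(OH)D, against 274, 362 and 637 CPM in control. Its difference of 0.60 ± 0.41 did not pass (adjusted p = 0.485).

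The gelatinase gene Mmp9, which in bone is best known from osteoclasts, had 1.87, 2.89 and 4.49 CPM with 25(OH)D, against 11.5, 8.64 and 5.47 CPM in control. All 3 treated libraries were lower than all controls, but the log2 difference of −1.46 ± 0.50 did not pass (edgeR adjusted p = 0.107). Mmp2, the other gelatinase, was too rare to be tested, with 19 summed counts with 25(OH)D and 21 in control.

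Of the ADAM genes, Adam11 rose and Adam12 fell. Adam11 encodes a catalytically inactive ADAM known from neurons. It had 9.63, 18.1 and 14.3 CPM with 25(OH)D, against 3.36, 1.05 and 0.714 CPM in control, so that even the lowest treated library was well above the highest control (8.16-fold, log2 3.03 ± 0.47, edgeR adjusted p = 0.00108). Its summed counts were 165 with 25(OH)D and 22 in control. Adam12, meltrin α, a protease that cleaves IGF-binding proteins and HB-EGF, had 25.4, 27.0 and 24.8 CPM with 25(OH)D, against 68.1, 65.5 and 117 CPM in control. The treated libraries were nearly equal and all controls stood far above them (log2 −1.69 ± 0.24, adjusted p = 0.000632).

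The main sheddases did not pass. Adam10, which cleaves Notch receptors and cadherins, had 75.4, 71.1 and 79.2 CPM with 25(OH)D, against 76.7, 75.5 and 74.2 CPM in control, and had the smallest SE of its log2 difference among the ADAM genes (0.13, edgeR adjusted p = 0.99). Adam17, the TNF-α converting enzyme, averaged 29.5 ± 8.4 CPM with 25(OH)D and 32.7 ± 9.3 CPM in control (SD, n = 3 each; adjusted p = 0.802). Adam15, an ADAM that also takes part in cell adhesion, had 55.6, 100.0 and 104 CPM with 25(OH)D, against 65.5, 120 and 42.6 CPM in control. Its groups overlapped, as did those of Adam8, Adam9 and Adam19, proteases with roles in cell fusion and growth factor shedding. The log2 differences of these were −0.81 ± 0.54, 0.27 ± 0.54 and −0.84 ± 0.42 (adjusted p = 0.472, 0.834 and 0.298).

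Among the ADAMTS genes Adamts18, an ADAMTS protease, was nearly absent with 25(OH)D. Its summed counts were 2 with 25(OH)D and 114 in control, and the single 25(OH)D library with counts stood at 0.482 CPM while the controls had 7.19, 7.59 and 11.4 CPM. Control was higher by a ratio of 50.7, with a 95% exact counting interval of 13.7 to 424 that covers counting error only (edgeR adjusted p = 0.000992). Adamts9, an aggrecan- and versican-cleaving enzyme, had 9.09, 7.47 and 5.55 CPM with 25(OH)D, against 0.959, 3.37 and 2.62 CPM in control. All 3 treated libraries were higher, with a log2 difference of 1.65 ± 0.49 that missed the threshold (adjusted p = 0.0592). It passed with DESeq2 (adjusted p = 0.012) and with no filter (0.0247).

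The other proteoglycan-cleaving enzymes did not pass. Adamts4 averaged 80.1 ± 21 CPM with 25(OH)D and 79.7 ± 29 CPM in control, and Adamts5, the main aggrecanase of mouse cartilage, 107 ± 28 CPM and 122 ± 21 CPM in the same order (SD, n = 3 each; edgeR adjusted p = 0.993 and 0.733). Adamts1 had 170, 93.3 and 65.0 CPM with 25(OH)D, against 148, 148 and 517 CPM in control. The procollagen N-proteinase Adamts2, which trims type I procollagen, had 160, 98.1 and 63.7 CPM with 25(OH)D, against 138, 112 and 316 CPM in control. Control library 3 was far above the other two for both genes, and neither difference passed (log2 −1.31 ± 0.57 and −0.81 ± 0.43, adjusted p = 0.222 and 0.337).

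Of the ADAMTS-like genes Adamtsl5, whose product binds fibrillin microfibrils and whose promoter is printed above, rose with the smallest adjusted p of all 37 genes. It had 43.6, 40.3 and 42.3 CPM with 25(OH)D, against 10.6, 14.8 and 9.04 CPM in control. The treated libraries were tightly grouped and all stood clear of control (3.66-fold, log2 1.87 ± 0.24, edgeR adjusted p = 0.000248). Adamtsl3 had 1.60, 2.89 and 2.91 CPM with 25(OH)D, against 5.76, 5.69 and 5.0 CPM in control, and did not pass (log2 −1.14 ± 0.36, adjusted p = 0.08). Adamtsl4, another fibrillin-binding protein, averaged 6.73 ± 1.7 CPM with 25(OH)D and 6.85 ± 1.8 CPM in control (SD, n = 3 each; adjusted p = 0.977).

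Among the inhibitors Timp4 fell. It had 6.69, 5.06 and 11.4 CPM with 25(OH)D, against 20.4, 28.5 and 23.3 CPM in control, with no overlap (log2 −1.64 ± 0.29, edgeR adjusted p = 0.00284). Timp3, the TIMP that binds to the matrix and also inhibits ADAM17 and the aggrecanases, had 28.1, 34.0 and 28.5 CPM with 25(OH)D, against 23.0, 19.8 and 14.3 CPM in control. All 3 treated libraries were higher, but the log2 difference of 0.67 ± 0.20 missed the threshold (adjusted p = 0.0611). With RLE normalization it was 0.049, with DESeq2 0.0133, and without control library 1 0.045.

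Timp2, the inhibitor that also takes part in activating the Mmp2 product, had 4415, 4381 and 3865 CPM with 25(OH)D, against 3953, 3931 and 3703 CPM in control. Timp1 had 71.7, 58.8 and 67.9 CPM with 25(OH)D, against 72.4, 71.4 and 88.7 CPM in control. The ranges of both overlapped between the groups (log2 0.13 ± 0.14 and −0.23 ± 0.17, edgeR adjusted p = 0.666 and 0.517). Timp1, Timp3 and Timp4 each lie opposite a synapsin gene, and whether reads of Syn1, Syn3 or Syn2 entered their counts was not tested.

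**Figure D2:**
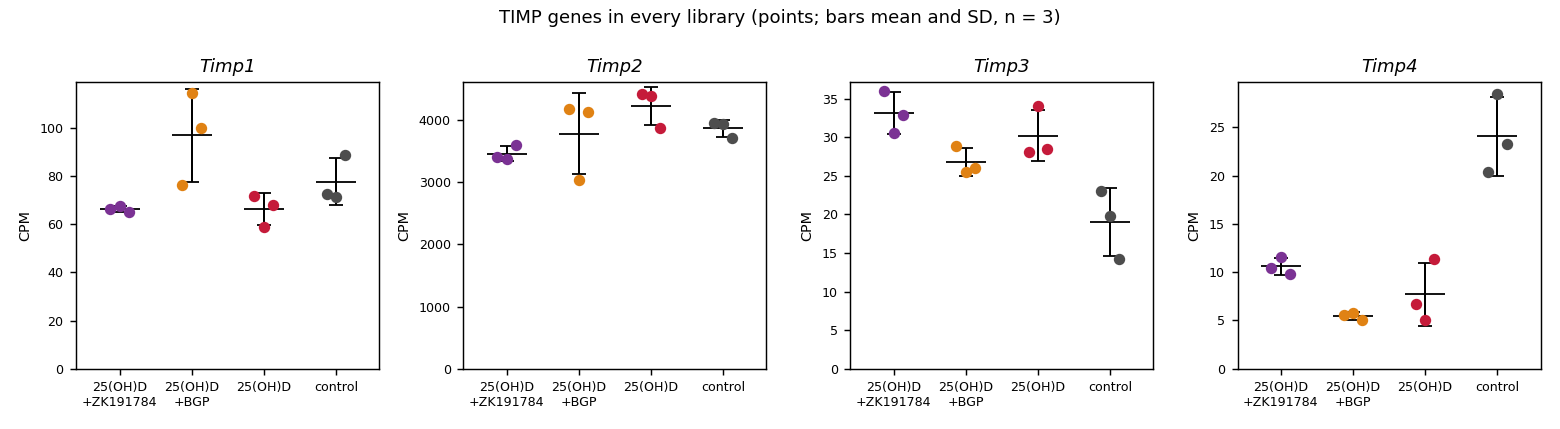
CPM of the 4 TIMP genes, 1 point per library, with mean and SD (n = 3) as bars, for the 4 groups from left to right. Timp4 is highest in the 3 control libraries, Timp3 is lowest there, and the 3 Timp1 points with BGP lie above those of 25(OH)D alone.

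The remaining 10 tested genes (Mmp19, Mmp25, Adam2, Adam23, Adamts3, Adamts7, Adamts10, Adamts12, Adamts14 and Adamts17) passed in none of the 5 comparisons by edgeR without a covariate. Their log2 differences between 25(OH)D and control ran from −1.17 (Adamts17) to 0.82 (Adam2), with adjusted p-values of 0.16 and above.

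The library ratio moved with several of these genes inside each group, though in no larger a share than among all genes tested. Mmp13, Mmp14, Adamts1, Adamts2 and Mmp11 were highest in the library with the highest ratio in all 4 groups, and Mmp25 and Adam11 were lowest there in all 4. These were 13.5% and 5.41% of the tested members, against 17.5% and 13.4% of all genes tested. Adam10 was highest in that library in 0 of the 4 groups. With the ratio as a covariate in the fit, more genes were called in the 25(OH)D comparison, 7 higher and 9 lower, with 19.8% of all genes called (2857).

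**Figure D3:**
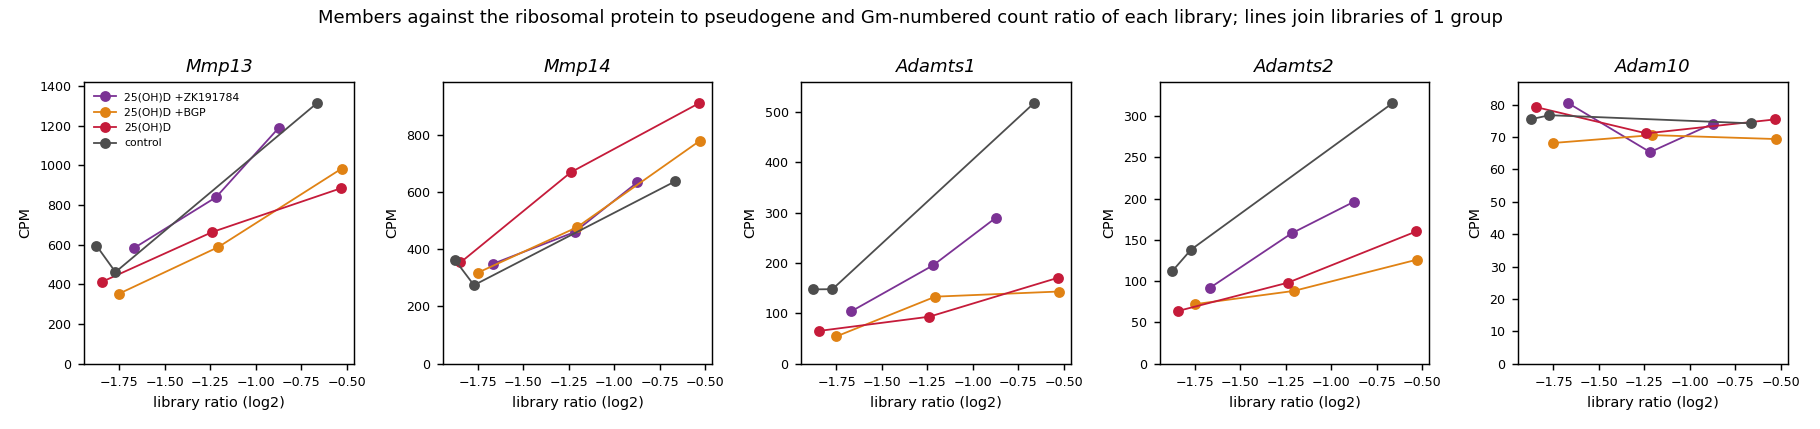
CPM of 5 genes against the log2 library ratio, 1 point per library, with lines joining the 3 libraries of a group. Mmp13, Mmp14, Adamts1 and Adamts2 are highest at the right end in each group, and the Adamts1 and Adamts2 lines of control lie above those of 25(OH)D, while Adam10 stays between 65.3 and 80.4 CPM.

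With that covariate Adamts1 and Adamts2 were lower with 25(OH)D than in control by edgeR (log2 −1.48 and −1.0, adjusted p = 7.72e-07 and 2.85e-08). Mmp13 (−0.45, adjusted p = 0.00502) and Mmp9 (−1.25, 0.01) were also lower. Mmp14 (0.35, adjusted p = 0.0277), Timp3 (0.71, 0.00348) and Adamts9 (1.47, 0.00631) were higher. Adamts17, named here after its value was seen, was lower (−1.26, adjusted p = 0.0309). What sets the ratio in a library was not tested. The ratio was computed from these same counts, and its absolute correlation with the within-group component described above was 0.984. As a covariate it takes most of that component out of the spread, so these small p-values are no independent support.

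The comparison of 25(OH)D plus ZK191784 with 25(OH)D alone asked what the analogue changed in cells given the metabolite. Of the 37 genes 1 rose, Adam12, and 3 fell, Adamtsl5, Mmp8 and Adam11, which is 10.8% of them, against 3.53% of all genes tested (1.42% higher and 2.11% lower). This comparison shares the 25(OH)D libraries with that of 25(OH)D and control, so its values are not independent of those given above. The median log2 fold change of the 37 was 0.10, against 0.02 over all genes. Libraries of the 2 groups did not overlap for 12 of the 37, nor for 17.6% of all genes tested.

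Adam11 had 0.614, 0.964 and 0.870 CPM with ZK191784, against 9.63, 18.1 and 14.3 CPM with 25(OH)D alone, a fall to summed counts of 11 against 165. No library with ZK191784 came near one without it, and the log2 difference was −4.07 ± 0.51 (edgeR adjusted p = 0.000696). Adamtsl5 had 13.5, 21.5 and 15 CPM with ZK191784, against 43.6, 40.3 and 42.3 CPM with 25(OH)D alone. Its log2 difference was −1.34 ± 0.23 (adjusted p = 0.00553), and the groups were far apart. These 2 calls were kept without any one of the 6 libraries.

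Mmp8 had 9.62, 8.44 and 6.74 CPM with ZK191784, against 15.5, 17.8 and 23.8 CPM with 25(OH)D alone (log2 −1.20 ± 0.28, edgeR adjusted p = 0.0358). Adam12 had 58.8, 67.3 and 43.7 CPM with ZK191784, against 25.4, 27.0 and 24.8 CPM with 25(OH)D alone (log2 1.13 ± 0.24, adjusted p = 0.0195). Neither gene's groups overlapped. The Mmp8 call was lost without any one of the 6 libraries (adjusted p between 0.0513 and 0.164), and the Adam12 call without any one of them except ZK191784 library 3 (0.0643 to 0.113).

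Mmp11 had 20.9, 11.6 and 6.09 CPM with ZK191784, against 107, 76.9 and 34.6 CPM with 25(OH)D alone. Its groups did not overlap, but the log2 difference of −2.49 ± 0.66 missed the threshold (edgeR adjusted p = 0.0653), while DESeq2 gave 0.00256 and a fit of the 6 libraries alone 0.0352. Mmp16 and Timp4 did not pass, with log2 differences of 0.91 ± 0.46 and 0.46 ± 0.29 (adjusted p = 0.5 and 0.684). Adamts18 had 17 summed counts with ZK191784 and 2 with 25(OH)D alone, so that the level with 25(OH)D alone was 0.137 times that with ZK191784 (95% exact counting interval 0.0154 to 0.579), and it did not pass either (adjusted p = 0.177). Adamts4 had 126, 134 and 98.5 CPM with ZK191784, against 99.2, 83.4 and 57.6 CPM with 25(OH)D alone, with an overlap of 1 library and an adjusted p of 0.435.

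With the library ratio as a covariate, 5 of the 37 genes were higher and 5 lower with ZK191784 by edgeR, with 11.5% of all genes called (1650). Adamts1 (log2 0.92, adjusted p = 0.000483), Adamts2 (0.56, 0.000842), Mmp13 (0.47, 0.00466) and Adamts4 (0.63, 0.000472) joined the higher genes, and Mmp11 (−2.40, 7.16e-12) and Adamts10 (−0.65, 0.0478, named after its value was seen) the lower ones.

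**Figure D4:**
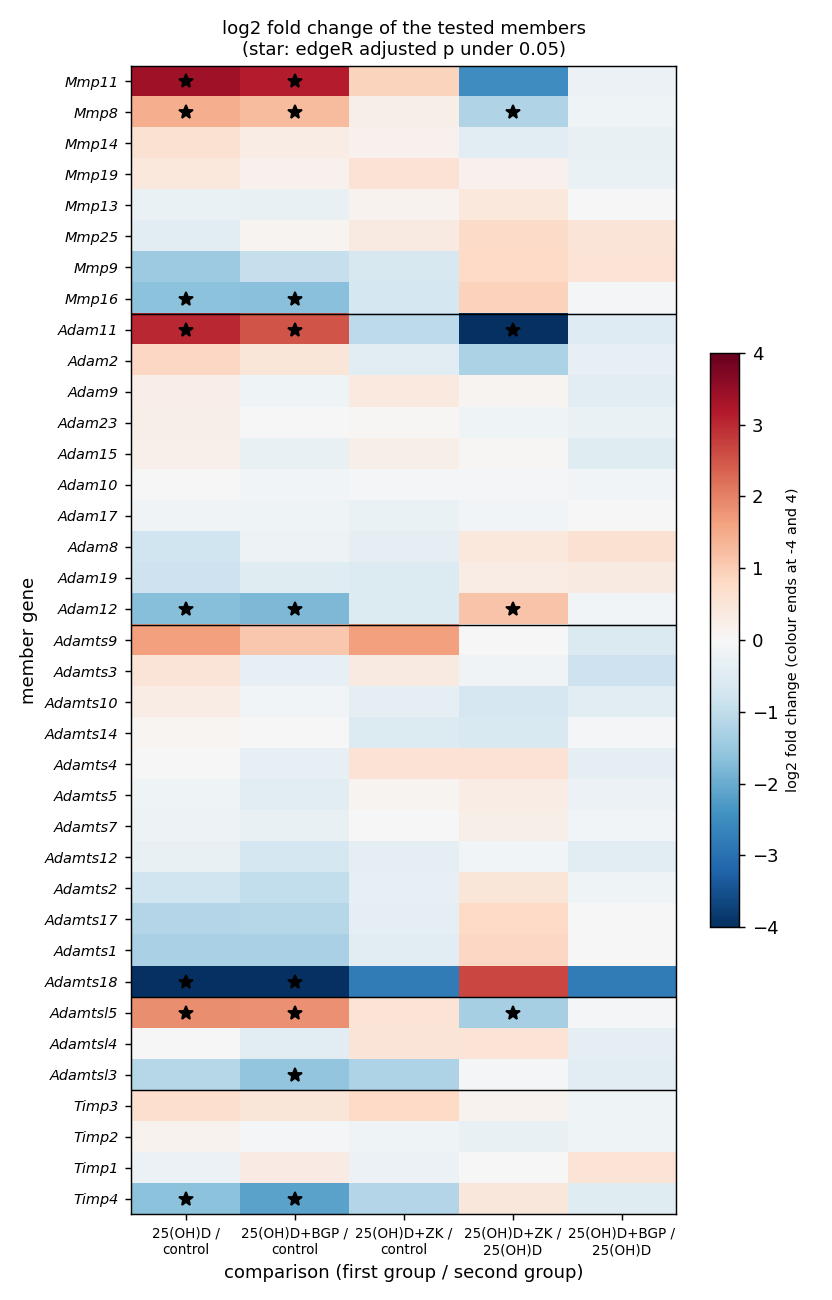
Heat map of log2 fold changes of the 37 tested genes (rows, by family) in 5 comparisons (columns, first group over second), red for higher and blue for lower in the first group, with a star at an edgeR adjusted p under 0.05. Stars stand at 8 genes for 25(OH)D over control, 9 for 25(OH)D plus BGP over control, 4 for 25(OH)D plus ZK191784 over 25(OH)D, and none in the other 2 columns. Except for 25(OH)D plus ZK191784 over control, the Adamts18 colours are fitted values that rest on a group with 0 or 2 counts and are no measure of size.

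Against control, the combination of 25(OH)D and ZK191784 gave calls for 0.723% of all genes tested (0.507% higher and 0.215% lower). In this edgeR fit of all 12 libraries, with the filter and no covariate, none was among the 37 genes. An unadjusted p under 0.05 was found for 8 of them and for 960 of all 14394 genes, and DESeq2 called 3 of them and 1.83% of all genes (264). The 3 were Timp3, higher with the combination (36.0, 30.6 and 32.8 CPM, against 23.0, 19.8 and 14.3 CPM in control), and Timp4 and Adamts18, which were lower. Timp4 had 10.4, 11.6 and 9.78 CPM with the combination, against 20.4, 28.5 and 23.3 CPM in control. Adamts18 had 1.23, 0.964 and 1.52 CPM with the combination, against 7.19, 7.59 and 11.4 CPM in control. None of these 3 overlapped with control, and their edgeR adjusted p-values were 0.122, 0.1 and 0.0617 (log2 0.80 ± 0.20, −1.18 ± 0.28 and −2.78 ± 0.56). Adamts18 was also called by edgeR with no filter (adjusted p = 0.00469) and in a fit of the 6 libraries alone (0.0415). Lack of overlap was found here for 8 of the 37 genes and for 11.8% of all genes tested. Besides these 3 they were Adamts9 and Adamtsl4, higher, and Adamtsl3, Timp1 and Timp2, lower. Adamts9 differed by log2 1.64 ± 0.49 and Adamtsl3 by −1.22 ± 0.36 (edgeR adjusted p = 0.256 and 0.25).

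The other genes called with 25(OH)D against control did not pass in the edgeR fit without a covariate either. Their log2 differences between the combination and control were 0.53 ± 0.24 for Adamtsl5, 0.25 ± 0.29 for Mmp8, 0.90 ± 0.70 for Mmp11, −1.04 ± 0.58 for Adam11, −0.56 ± 0.23 for Adam12 and −0.71 ± 0.43 for Mmp16 (edgeR adjusted p = 0.718, 0.998, 0.998, 0.925, 0.649 and 0.954). Under the library ratio covariate edgeR called 3 of the 37 higher (Timp3, Adamts4 and Adamts9) and 676 of all 14394 genes. It called 4 of the 37 lower (Timp4, Adamts18, Adamts2 and Adam12). Adam12 then differed by −0.61 (edgeR adjusted p = 0.0062).

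The combination of 25(OH)D with a further 4 mM BGP was set against control and against 25(OH)D alone. Against control, 4 of the 37 genes rose (Mmp11, Mmp8, Adam11 and Adamtsl5) and 5 fell (Mmp16, Adam12, Adamts18, Adamtsl3 and Timp4), 24.3% of them, against 8.25% of all genes tested (3.9% higher and 4.35% lower). This comparison shares its control libraries with that of 25(OH)D alone. Against 25(OH)D alone none of the 37 was called by edgeR or DESeq2, and 0% of all genes tested, while 1 of the 37 and 268 of all genes had an unadjusted p under 0.05. Libraries did not overlap with control for 14 of the 37 and 21% of all genes tested. They did not overlap with 25(OH)D alone for 2 of the 37 and 6.04% of all genes tested.

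Adamtsl5 had 35.3, 46.2 and 39.7 CPM with BGP, against 10.6, 14.8 and 9.04 CPM in control, with a log2 difference of 1.82 ± 0.24 (edgeR adjusted p = 0.000323). Adam11 had 9.82, 8.99 and 10.8 CPM with BGP, against 3.36, 1.05 and 0.714 CPM in control (log2 2.52 ± 0.47, adjusted p = 0.00412). Adam12 had 20.8, 26.8 and 23.7 CPM with BGP, against 68.1, 65.5 and 117 CPM in control (log2 −1.81 ± 0.24, adjusted p = 0.000409). In all 3 the libraries with BGP stood clear of control and within or near the range of 25(OH)D alone.

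Timp4 had 5.61, 5.78 and 5.01 CPM with BGP, against 20.4, 28.5 and 23.3 CPM in control (log2 −2.13 ± 0.30, edgeR adjusted p = 0.000539). Adamts18 had 0 counts in the 3 libraries with BGP and 114 in control, which makes control at least 38.9-fold higher against a floor of 3 counts over the group (adjusted p = 0.000401). That floor is an assumed count, and the exact 95% counting interval of the ratio starts at 31.1. Both sets of libraries lay entirely below control.

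Mmp11 had 21.0, 118 and 44.5 CPM with BGP, against 5.76, 3.58 and 11.4 CPM in control (log2 3.15 ± 0.70, edgeR adjusted p = 0.0128), and its libraries with BGP differed widely from each other. Mmp8 had 20.5, 18.4 and 12.0 CPM with BGP, against 5.76, 8.43 and 6.66 CPM in control (1.27 ± 0.29, adjusted p = 0.0142). Mmp16 had 1.96, 7.92 and 6.94 CPM with BGP, against 12.0, 20.0 and 22.4 CPM in control (−1.66 ± 0.45, adjusted p = 0.0387). None of the 3 overlapped between the groups. The Mmp11 call was lost without control library 1 or 2 (adjusted p = 0.0611 and 0.0647), the Mmp8 call without BGP library 1 or control library 1 (0.0555 and 0.0643), and the Mmp16 call without any one library except control library 1 (0.0507 to 0.124). With no filter on low counts the adjusted p of Mmp11 was 0.125, and in a fit of the 6 libraries alone that of Mmp8 was 0.0637 and that of Mmp16 0.11.

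Adamtsl3, an ADAMTS-like matrix glycoprotein, was called in this comparison and not in that of 25(OH)D alone, and its difference between the 2 treated groups did not pass (log2 −0.45 ± 0.39, edgeR adjusted p = 1). It had 2.24, 1.5 and 1.74 CPM with BGP, against 5.76, 5.69 and 5.0 CPM in control (−1.58 ± 0.37, adjusted p = 0.0175). The call was lost without BGP library 2 or 3 or control library 1 or 2 (0.0559 to 0.0876), with no filter on low counts (0.183) and in a fit of the 6 libraries alone (0.0713).

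The single gene with an unadjusted p under 0.05 between 25(OH)D plus BGP and 25(OH)D alone was Timp1, a secreted inhibitor of most MMPs. It had 76.3, 114 and 99.7 CPM with BGP, against 71.7, 58.8 and 67.9 CPM with 25(OH)D alone. All 3 libraries with BGP were higher (log2 0.55 ± 0.17, unadjusted p = 0.0062 in edgeR), but the adjusted p over all genes was 1. Of the 37 log2 differences 7 were positive and 30 negative, with a median of −0.17, against −0.02 over all genes. The split of signs was not counted over all genes, so it is not read as a shift of these genes. Adamts18, with 0 and 2 summed counts in these groups, is among the negative ones and has no meaningful fold here.

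The remaining 48 genes were too rare for the filter. Of these, 13 had 0 counts in all libraries, 11 of them Adam genes along with Mmp1a and Mmp7, 19 had 1 to 9 counts over the 12 libraries, and 16 had 10 or more. Mmp2, gelatinase A, had 25, 12, 19 and 21 summed counts with ZK191784, with BGP, with 25(OH)D alone and in control, and Mmp23 had 3, 2, 1 and 4. Exact 2-sided permutation tests over libraries were run for the 16 genes in 5 comparisons, where 3 libraries against 3 allow no p below 0.1. Of the 80 tests 7 gave that smallest p of 0.1, and the adjusted p over the 80 was 0.941 for each of them.

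Genes that act with these proteases were counted from lists of their activators, substrates and regulators in the comparison of 25(OH)D with control. Of 13 tested activators and partners, 1 rose and 1 fell (15.4%, against 8.68% of all genes). Lrp1, the receptor that takes up protease and inhibitor complexes, averaged 230 ± 49 CPM with 25(OH)D and 86.5 ± 10 CPM in control (SD, n = 3 each; log2 1.41 ± 0.21, edgeR adjusted p = 0.00082). Pcsk6, a furin-like proprotein convertase, averaged 0.676 ± 0.25 CPM with 25(OH)D and 8.41 ± 3.9 CPM in control (log2 −3.57 ± 0.46, adjusted p = 0.00029). Furin, Reck and the other 9 tested did not pass.

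Of 21 tested genes of the plasminogen system, other matrix proteases and their inhibitors, 5 rose and 3 fell (38.1%), with a median log2 fold change of −0.04. Ctsb, the cysteine protease cathepsin B, averaged 1052 ± 138 CPM with 25(OH)D and 194 ± 20 CPM in control (SD, n = 3 each; log2 2.44 ± 0.21, edgeR adjusted p = 1.05e-05). Htra1, a secreted serine protease, averaged 536 ± 75 CPM with 25(OH)D and 176 ± 35 CPM in control (1.61 ± 0.18, adjusted p = 8.32e-05). Both procollagen C-proteinase enhancers fell, Pcolce to 168 ± 10 CPM with 25(OH)D, against 430 ± 23 CPM in control (−1.35 ± 0.13, adjusted p = 3.22e-05), and Pcolce2 to 1.25 ± 0.79 CPM, against 16.1 ± 5.7 CPM in control (−3.63 ± 0.45, adjusted p = 0.000205).

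Of 14 tested matrix substrates 1 rose and 9 fell (71.4%), with a median log2 fold change of −1.16. The collagen genes Col1a1, Col3a1 and Col2a1 and the link protein gene Hapln1, which ties aggrecan to hyaluronan, had the smallest p-values. Col3a1 averaged 287 ± 56 CPM with 25(OH)D and 1251 ± 260 CPM in control, and Hapln1 4.38 ± 2.6 CPM with 25(OH)D and 32.5 ± 12 CPM in control (SD, n = 3 each). Of 14 shed membrane substrates 4 rose and 1 fell (35.7%). The syndecan Sdc1, a cell-surface proteoglycan, averaged 236 ± 38 CPM with 25(OH)D and 46.8 ± 13 CPM in control (log2 2.34 ± 0.26), and Cd44, the hyaluronan receptor that MMP14 can cut, 115 ± 3.1 CPM with 25(OH)D and 232 ± 60 CPM in control (−1.02 ± 0.18, edgeR adjusted p = 0.00267).

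Of 13 AP-1, ETS and RUNX factors, families known to bind MMP promoters, none rose and Runx2 and Runx3 fell (15.4%). Runx3 averaged 126 ± 3.4 CPM with 25(OH)D and 182 ± 27 CPM in control (SD, n = 3 each; log2 −0.53 ± 0.14, edgeR adjusted p = 0.0286). With ZK191784 against 25(OH)D alone, Runx2 and Cd44 were higher and Sdc1, Ctsb, Htra1 and Lrp1 lower, each called in edgeR, as were Pcsk6, Pcolce, Pcolce2, Col1a1, Col3a1, Col2a1 and Hapln1, which were higher. These genes were picked by their p-values between 25(OH)D and control, and the same 25(OH)D libraries are used again, so their reverse direction is no independent support. By list, in the order given, 15.4, 28.6, 28.6, 14.3 and 7.69% of tested genes were called with ZK191784 against 25(OH)D alone, against 3.53% of all genes. Sdc4, Il6ra and Runx3 did not pass there (adjusted p = 0.466, 0.764 and 0.0962). Fap, a serine protease of the cell surface named here after its values were seen, was higher both with 25(OH)D than in control (log2 0.96 ± 0.22, adjusted p = 0.0138) and with ZK191784 than with 25(OH)D alone (0.89 ± 0.21, adjusted p = 0.0389). In all 5 lists together none was called with BGP against 25(OH)D alone.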

How the data were processed

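Total RNA was extracted with TRIzol and made into QuantSeq 3' libraries, per the labels' protocols. The deposited values are read counts per gene symbol and library, made by the authors, per the submitters' processing notes, on mm39 using STAR 2.7.9a and featureCounts (Subread 2.0.3). Those notes list DESeq2 1.38.2 too but no role for it. The strand setting and annotation release are not given there, which leaves overlapping and antisense genes impossible to tell apart.

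Counts were filtered with filterByExpr of edgeR 4.0.16 (R 4.3.3; min.count 10, min.total.count 15), which kept 14394 genes with 99.4% of the counts. A robust quasi-likelihood model with TMM scaling was fitted to all 12 libraries, with 1 coefficient per group and no block (common biological coefficient of variation 0.292). P-values were adjusted by Benjamini-Hochberg over all genes and called under 0.05. SEs are approximate, computed as |log2 fold change| over the root of the F statistic. Of the 56691 entries 20212 had 0 counts and 882 repeated a symbol, none of them a protease or TIMP gene.

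The text names 26 proteases and inhibitors whatever their result and every other one called in any of 5 comparisons, and of each related list up to 4 called genes with the smallest p. The genes, lists, marker lists and the library ratio were chosen with earlier results of these data known. The alternatives were RLE scaling, DESeq2 1.42.0, no filter, a CPM of at least 2 in 3 libraries, the library ratio as a covariate, only the 2 groups compared, a replicate block, summed repeated symbols, and leaving out each library. The edgeR code was run on simulated counts with 1 spread for all genes and no shared within-group component. That run therefore does not test the calls made here. Deviations from the group mean correlated above 0.1 in 4 of 18 pairs of same-numbered libraries (correlations from −0.71 to 0.61). The component that ran with the library ratio weighs on these correlations, so they cannot decide whether same-numbered libraries were matched. Numbers were not used as pairs in the main fit. Overlapping genes were read from a GENCODE annotation of the previous build, by name only. There Adam12 overlaps Gm23631, Gm19514 and A130023I24Rik on its own strand, and Adamtsl3 overlaps Gm44919 on its own strand. Mmp16 and Adamts9 overlap genes on the opposite strand, and further named genes have overlaps too. Whether reads of such genes entered the counts was not tested. Protein sequences were not used here. Plots used Python 3.11.15 and matplotlib 3.10.9.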

Additional observations from a re-analysis of the deposited data

How the results depend on the processing

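In this section BGP and ZK191784 stand for the groups given 25(OH)D plus a further 4 mM BGP and 25(OH)D plus ZK191784. Over 27 named genes in 5 comparisons, 21 of 135 results were called, and 20 alternative settings gave 1887 further values. Of these 1812 kept their side of the threshold, 38 lost a call, 37 gained one, and 0 called values changed sign. The 38 losses all fall on the 21 called results. Most of the 1812 come from results that were not called and could not lose a call. The counts of called genes that moved by more than 1.5 times were as follows. Under the covariate (the library ratio), 7 genes were higher and 9 lower with 25(OH)D than in control, 5 higher and 5 lower with ZK191784 than with 25(OH)D alone, 11 lower with BGP than in control, and 3 higher and 4 lower with ZK191784 than in control. DESeq2 called 1 higher and 2 lower with ZK191784 than in control, and no filter and the 2 groups alone each called 1 lower there. The 2 groups alone called 3 lower with BGP than in control. A replicate block left 0 genes higher and 2 lower with ZK191784 than with 25(OH)D alone, where Adam12 had an adjusted p of 0.0585 and Mmp8 0.0898, and it changed no such count in the other comparisons. By number, 3 of 12 libraries were closest to a library of their own number. Leaving out 1 library gave 4 to 5 genes higher and 3 to 4 lower for 25(OH)D against control, 2 to 4 higher and 3 to 4 lower for BGP against control, 0 to 1 higher and 2 lower for ZK191784 against 25(OH)D, and 0 in the other comparisons. Smaller moves were 5 higher with RLE and 6 higher with DESeq2 for 25(OH)D against control, where the 2 groups alone gave 3 lower, and 4 lower with DESeq2 for ZK191784 against 25(OH)D. For BGP against control no filter gave 3 higher and 4 lower, the 2 groups alone 3 higher and the covariate 5 higher. Summed repeated symbols changed no call. Over all genes, 1250 calls between 25(OH)D and control became 763 with the 2 groups alone, 813 without 25(OH)D library 2 and 2857 with the covariate. The 1187 between 25(OH)D plus BGP and control became 712 with the 2 groups alone and 2689 with the covariate. The 508 between ZK191784 and 25(OH)D became 334 with the block, 797 with DESeq2, 1650 with the covariate and 269 to 328 without any one library except 25(OH)D library 3. The 104 between ZK191784 and control became 42 with the 2 groups alone, 56 with the block, 220 with no filter, 264 with DESeq2, 676 with the covariate and 34 to 62 without any one library except control library 3. The 0 between BGP and 25(OH)D became 6 with the covariate. The cause of these differences was not tested. Genes at a few CPM, such as Adamts18, Adamtsl3 and Mmp9, rest on few counts per library, and the 48 untested genes allow no statement at this depth.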
